A study of Homo sapiens with 8 samples.

Results

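Zinc finger genes with a numbered ZNF symbol make up one of the largest groups of transcription factor genes in the human genome, and 177 of them were well expressed in the esophageal squamous cell carcinoma line KYSE150. They were selected on their measured totals: every gene of the count table with such a symbol was taken whose raw counts summed to 2000 or more over all 8 libraries. The table lists 61517 genes, of which 477 have a numbered ZNF symbol and 300 of these fell below the threshold, 84 of them with no count in any library. All 177 members passed the filter on low counts, as did 15554 genes in all. A sum over libraries gives most weight to the groups in which a gene is high, so the levels of the members are a description. The fold changes between groups were not a criterion, but they come from the same counts. The choice of threshold can therefore move them, as the medians at other totals show in the section on processing.

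Most ZNF proteins carry runs of C2H2 fingers, short folds around a zinc ion that read DNA bases side by side, so that proteins with different finger runs bind different sequences. Many also carry a KRAB box, which recruits the corepressor TRIM28 (KAP1), and through it the H3K9 methyltransferase SETDB1, HP1 proteins and the NuRD complex, and such proteins are known for silencing transposable elements and imprinted loci. Others carry a SCAN domain for pairing with one another, and a minority work outside DNA-binding repression, in ribosome assembly, translation quality control, RNA binding, the mitotic spindle or SUMO transfer. Many KRAB genes lie in clusters on chromosome 19 that arose by tandem duplication.

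KYSE150 cells, a human line, were sequenced as poly(A)-selected RNA in 4 groups with 2 libraries each. Cells of one group grew in normoxia and of another in hypoxia, both without drug. Another was in hypoxia with oxamate, an inhibitor of lactate dehydrogenase, and the fourth in hypoxia with both oxamate and NALA. NALA is the abbreviation in the labels and was read as sodium lactate, because the treatment protocol names only sodium oxamate and sodium lactate. The sources used here give no oxygen level, dose or time, and no group received NALA without oxamate or any drug in normoxia. The title of the series concerns lactylation of the hypoxia-inducible factor HIF-1α, so the first comparison is about hypoxia, the second about blocking lactate production in hypoxia and the third about adding NALA to the block. Whether a group's libraries come from separate cultures is not in the labels, so the p-values speak only of the spread among these 8 libraries, and that spread may be technical.

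The libraries held 21845676 to 29406061 counts, and levels below are CPM, counts scaled to a common library size by TMM. The TMM factors ran from 0.8787 in an oxamate library to 1.151 in a normoxia library. The common biological coefficient of variation was 3.06%, so changes well below 2-fold passed the test. Libraries of a group differed by more than counting noise, at a chi-square of 1.85 to 2.11 per degree of freedom in the first 3 groups and 4.83 in the NALA group. The hypoxia markers CA9, NDRG1, VEGFA and LDHA all rose in hypoxia, fell with oxamate and rose when NALA was added. Compared with hypoxia, the NALA group remained lower in CA9 (a mean of 18.5 against 245 CPM), NDRG1 (3706 against 7356) and LDHA (4437 against 5657), and VEGFA (78.9 against 82.0) did not pass. The squamous markers KRT5, TP63, SFN, PERP and DSP were abundant in every library, whereas SOX2 had 0 to 12 counts. Of the leukocyte markers, PTPRC and CD3E had at most 29 counts in a library, and CD68 made up nearly all of their sum of 34.7 to 117 CPM. Fibroblast and endothelial markers summed to 1.32 to 10.0 CPM. RNA was pooled over cells, so a change in every cell cannot be told apart from a larger change in some of them.

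The starts of 5 members that lead the comparisons below are shown first. Each is 300 bases, from 250 before to 50 after the RefSeq start (build GRCh38.p14), on the strand of the gene and 5′ to 3′, with capitals where ACGTG (the core of the hypoxia response element), GCGTG (its common variant) or CCAAT (the box bound by NF-Y) occurs on either strand. ZNF292 on the plus strand of chr6:87155315-87155614 had the largest increase in hypoxia, and ZNF593 on the plus strand of chr1:26169658-26169957 and ZNF598 on the minus strand of chr16:2009772-2010071 fell in hypoxia and rose with oxamate. ZNF12 on the minus strand of chr7:6706898-6707197 and ZNF627 on the plus strand of chr19:11597233-11597532 had the largest increases when NALA was added.
ZNF292: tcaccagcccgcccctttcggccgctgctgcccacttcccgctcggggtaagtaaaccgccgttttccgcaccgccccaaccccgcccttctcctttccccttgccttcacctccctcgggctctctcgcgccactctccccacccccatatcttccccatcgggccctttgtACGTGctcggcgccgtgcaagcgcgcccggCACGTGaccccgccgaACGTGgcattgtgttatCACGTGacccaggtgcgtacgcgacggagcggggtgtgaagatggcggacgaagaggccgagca
ZNF593: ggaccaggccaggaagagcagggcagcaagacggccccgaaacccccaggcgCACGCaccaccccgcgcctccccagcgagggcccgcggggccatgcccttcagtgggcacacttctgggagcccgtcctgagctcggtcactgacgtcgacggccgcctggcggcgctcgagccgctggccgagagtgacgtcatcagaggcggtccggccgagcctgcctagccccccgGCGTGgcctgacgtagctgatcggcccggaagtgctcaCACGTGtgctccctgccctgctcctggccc
ZNF598: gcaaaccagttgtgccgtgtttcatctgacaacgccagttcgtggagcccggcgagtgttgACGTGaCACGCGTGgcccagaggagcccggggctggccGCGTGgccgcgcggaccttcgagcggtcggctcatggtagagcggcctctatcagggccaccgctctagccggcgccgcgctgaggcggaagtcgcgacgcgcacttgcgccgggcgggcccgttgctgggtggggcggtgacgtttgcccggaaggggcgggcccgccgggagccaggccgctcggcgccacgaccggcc
ZNF12: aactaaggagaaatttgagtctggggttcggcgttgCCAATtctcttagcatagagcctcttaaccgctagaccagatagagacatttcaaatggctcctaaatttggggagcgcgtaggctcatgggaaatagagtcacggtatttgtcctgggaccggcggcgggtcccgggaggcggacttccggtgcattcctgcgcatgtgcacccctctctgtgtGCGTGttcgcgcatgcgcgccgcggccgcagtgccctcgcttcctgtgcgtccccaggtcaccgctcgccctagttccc
ZNF627: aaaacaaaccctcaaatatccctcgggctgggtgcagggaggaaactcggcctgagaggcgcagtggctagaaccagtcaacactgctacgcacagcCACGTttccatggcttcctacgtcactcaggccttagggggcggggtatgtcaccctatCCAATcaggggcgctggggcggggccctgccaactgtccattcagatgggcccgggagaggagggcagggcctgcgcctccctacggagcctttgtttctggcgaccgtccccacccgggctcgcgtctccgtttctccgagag

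The ZNF292 window holds the palindrome CACGTG at 2 places and ACGTG alone at others, the ZNF593 window holds CACGTG once, and neither the ZNF598 nor the ZNF12 nor the ZNF627 window holds it. Of the 177 members, 154 had a start in RefSeq, and the first entry of each gene was searched, as for all 27305 genes with one. ACGTG occurred in 27.3% of member windows against 21.6% of all windows, GCGTG in 54.5% against 36.3%, CACGTG (which contains ACGTG on both strands) in 7.14% against 7.43% and CCAAT in 41.6% against 35.7%. Member windows also held more G and C, with a median of 63.0% against 58.3%. Among the 12 members with a window that rose at least 2-fold in hypoxia, 6 held ACGTG (50%) and 9 GCGTG (75%). Among the 15 that fell at least 2-fold, 6 held ACGTG (40%) and 9 GCGTG (60%). Both sets are small, and the difference between them was not tested. CCAAT occurred in 43 of 70 windows of KRAB members (61.4%) and in 21 of 84 of the others, whose median GC content was 60.0% and 66.8%. These are counts of letters in a fixed window and do not show binding.

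Member totals ran from 2025 to 59889 counts with a median of 4489. The highest were ZNF395 with 59889, ZNF207 with 55535 and ZNF598 with 31974. Just inside the threshold were ZNF823 with 2037, ZNF117 with 2027 and ZNF628 with 2025, and just outside it ZNF696 with 1986, ZNF524 with 1962 and ZNF839 with 1957. In 103 members each group held at least 500 counts over its libraries, and the smallest group sum of any member was 53 counts. Per kilobase of exon, the mean level ran from 0.775 to 49.8 CPM with a median of 3.82, lowest in ZNF765, ZNF445 and ZNF117 and highest in ZNF395, ZNF593 and ZNF622.

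By sequence patterns in proteins translated from GENCODE release 29, a KRAB A box was found in 77 members, a SCAN domain in 12 and both in 4. Divergent domains may be missed. The median member had 9 C2H2 fingers and the largest number was 35, while no finger of the pattern searched was found in ZNF185, ZNF330, ZNF703 and ZNF720. On chromosome 19 lay 61 members, followed by 17 on chromosome 7 and 13 each on chromosomes 1 and 16. Zinc finger genes resemble one another, so 64-base words of every member's transcripts were looked up in all other genes. No word was shared for 95 members, at least 5% of words for 26 and at least 20% for 7. A gene with at least 10% of the member's level overlapped the exons of 35 members. Whether the counting used strand is not stated, so reads of such neighbours may be included. Neither such an overlap nor a share of at least 5% of words applied to 125 members.

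The members as a class took a smaller part of the mRNA with oxamate and a larger part when NALA was added. They held 0.604% and 0.601% of the counts of the normoxia libraries, 0.572% and 0.577% of hypoxia, 0.385% and 0.387% of oxamate and 0.653% and 0.666% of NALA libraries. Summed CPM were 5253 and 5228 under normoxia, 5226 and 5255 under hypoxia, 4388 and 4399.6 under oxamate, and 7249 and 7392 under oxamate and NALA. The normoxia and hypoxia libraries overlapped, the oxamate libraries lay below them and the NALA libraries above. The median member stood at 22.02 and 21.7, 21.5 and 21.5, 14.1 and 14.3, and 25.1 and 24.9 CPM in the same order. The lowest of the 4 group means fell to the oxamate group in 94 members (53.1%, against 28.8% of all tested genes), and the highest to the NALA group in 87 (49.2%, against 21.5%).

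**Figure D1:**
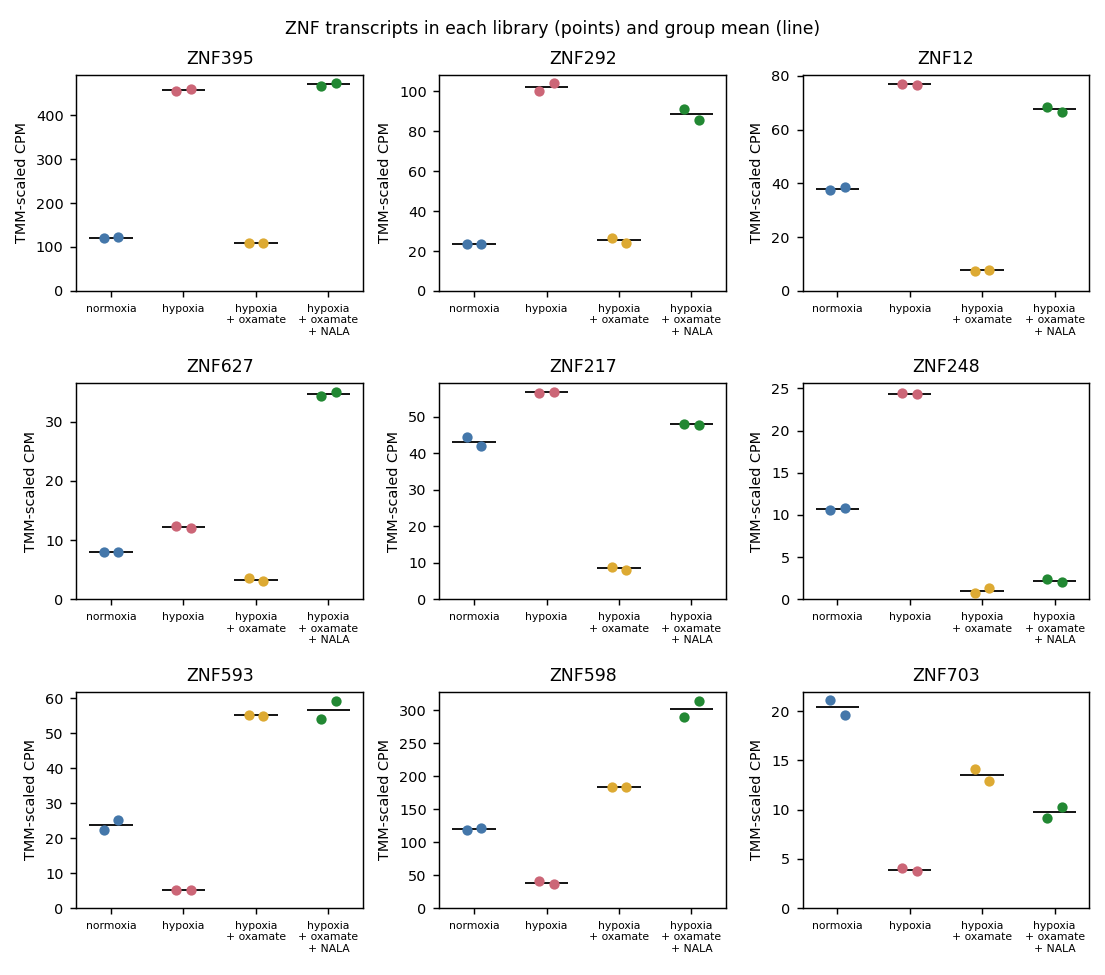
TMM-scaled CPM (linear axes from 0) of 9 members in each of the 8 libraries, with points for libraries and a line for the mean of each group of 2. ZNF395 and ZNF292 are high in hypoxia and in the NALA group, ZNF12, ZNF627, ZNF217 and ZNF248 are lowest with oxamate, and ZNF593, ZNF598 and ZNF703 are lowest in hypoxia.

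In hypoxia against normoxia, 70 members fell and 57 rose, and 50 did not pass the test. Of all tested genes 36.8% fell and 36.7% rose, and the members' shares (39.5% and 32.2%) lie near that background. Of the 9304 tested genes that also had a total of 2000 or more, 48.0% fell and 37.3% rose. The median log2 fold change of the members was -0.05, against 0.02 for all tested genes and -0.10 for those with such totals, and with upper quartile scaling that of the members turned to 0.05, with 56 members lower and 75 higher. At least 2-fold, 19 fell and 14 rose (10.7% and 7.91%), against 13.1% and 15.6% of all tested genes and 13.2% and 8.24% of those with such totals. In every called member, in this comparison and the next 3, the libraries of the groups compared did not overlap. With 2 libraries a group and so small a spread, a call leaves little room for overlap, so this is not separate support. It was not counted over all tested genes.

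The highest increase was that of ZNF292, a large protein with 15 fingers linked to tumour suppression, encoded on chromosome 6 from 87152833 to 87264196 (plus strand). It stood at 23.3 and 23.7 CPM under normoxia, 100.03 and 104 under hypoxia, 26.6 and 24.2 with oxamate and 91.3 and 85.8 with NALA added. Hypoxia and NALA libraries were high, and the oxamate libraries lay just above normoxia. The log2 fold change in hypoxia was 2.12 ± 0.054 (standard error, as below; adjusted p = 3.20e-19 by edgeR's quasi-likelihood test with Benjamini-Hochberg adjustment over all tested genes, which also gave every adjusted p below). ZNF395, which has been described as hypoxia-inducible and lies on chromosome 8 from 28345585 to 28402701 (minus strand), held 119 and 122 CPM in normoxia and 455 and 460.1 in hypoxia, a log2 change of 1.92 ± 0.032. It fell back to 110.1 and 109 CPM with oxamate and stood at 467 and 474 with NALA added. The normoxia and oxamate libraries were low and the hypoxia and NALA libraries high. Of its 64-base words 32.4% also occur in FBXO16, so its counts may include reads of that gene.

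Further increases in hypoxia were seen in ZNF185, ZNF654, ZNF318 and ZNF436. ZNF185, a LIM domain protein of the actin cytoskeleton, had 20.7 and 20.8 CPM in normoxia and 62.1 and 65.01 in hypoxia (1.61 ± 0.058). In ZNF654 the values were 6.32 and 7.21 and 19.9 and 20.4 CPM (1.57 ± 0.10), with CGGBP1 overlapping on the opposite strand. For ZNF318, a nuclear protein known for control of transcript ends in B cells, they were 28.3 and 28.5 and 82.3 and 84.4 CPM (1.55 ± 0.052). ZNF436, a KRAB gene overlapped by its antisense transcript ZNF436-AS1, went from 14.4 and 13.8 to 35.97 and 35.8 CPM (1.35 ± 0.083). The libraries of these 4 members were all higher in hypoxia than in normoxia.

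The lowest fold change was that of ZNF703 (-2.38 ± 0.11, adjusted p = 7.42e-15), a corepressor amplified in luminal breast cancers and encoded on chromosome 8 from 37695751 to 37700021 (plus strand). It held 21.1 and 19.7 CPM under normoxia, 4.07 and 3.73 under hypoxia, 14.2 and 12.9 with oxamate and 9.20 and 10.2 with NALA added, so that hypoxia was its lowest group. ZNF593, the relative of a yeast export factor of the large ribosomal subunit and encoded on chromosome 1 from 26169871 to 26170873 (plus strand), fell from 22.4 and 25.2 to 5.06 and 5.28 CPM (-2.21 ± 0.093). ZNF746 (PARIS), a KRAB protein that is a substrate of the ubiquitin ligase parkin, fell from 22.7 and 21.3 to 5.77 and 5.91 CPM (-1.91 ± 0.091). In all 3 the hypoxia libraries lay far below the normoxia libraries.

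The SCAN gene ZNF232 fell from 21.5 and 22.8 to 6.65 and 6.86 CPM (-1.71 ± 0.097), with the transcript AC012146.1 overlapping on the opposite strand. ZNF629, with 19 fingers, fell from 38.8 and 42.2 to 12.2 and 12.6 CPM (-1.70 ± 0.079). ZNF598, the ubiquitin ligase that marks collided ribosomes, encoded on chromosome 16 from 1997654 to 2009823 (minus strand), fell from 119 and 121 to 40.7 and 35.9 CPM (-1.65 ± 0.052). Of the other members of the lists by role, ZNF367 (-1.43 ± 0.067), the double-stranded RNA binding protein ZNF346 (-1.21 ± 0.082), the spindle protein ZNF207 (-1.06 ± 0.032) and ZNF281 (-0.86 ± 0.11), a factor of pluripotent cells, had the largest decreases.

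**Figure D2:**
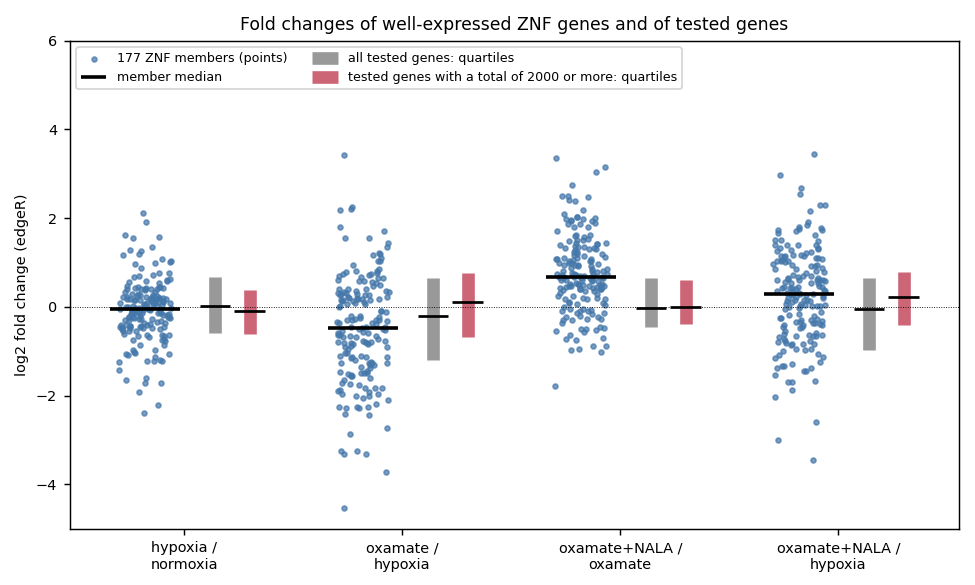
log2 fold change (edgeR) of each of the 177 members (points, with a line for the median) in 4 comparisons, beside the quartiles (bars) and medians (lines) of all 15554 tested genes and of the 9304 with a total of 2000 or more. The member medians are -0.05 for hypoxia (0.05 with upper quartile scaling), -0.48 for oxamate, 0.68 for NALA against oxamate and 0.29 for NALA against hypoxia.

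With oxamate in hypoxia, against hypoxia alone, 105 members fell and 55 rose. Of all tested genes 44.8% fell and 35.7% rose, and the members' shares were 59.3% and 31.1%. Their median log2 fold change was -0.48, against -0.20 for all tested genes and 0.11 for the 9304 tested genes with a total of 2000 or more, of which 41.3% fell and 49.0% rose. At least 2-fold, 60 members fell (33.9%, against 27.5% of all tested genes and 17.7% of those with such totals) and 16 rose (9.04%, against 14.3% and 16.9%). The 4 comparisons share libraries with one another, except hypoxia against normoxia with NALA against oxamate, so values of a gene in adjoining comparisons are not independent.

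The 6 largest decreases were all in KRAB genes. ZNF248, on chromosome 10 from 37776526 to 37858106 (minus strand), held 10.6 and 10.8 CPM under normoxia, 24.4 and 24.3 under hypoxia, 0.736 and 1.38 with oxamate and 2.44 and 2.04 with NALA added. The oxamate and NALA libraries were low, and the log2 fold change with oxamate was -4.53 ± 0.16 (adjusted p = 3.00e-17). ZNF791, with 17 fingers, on chromosome 19 from 12610918 to 12633840 (plus strand), stood at 23.7 and 23.5 CPM in normoxia and 24.5 and 25.3 in hypoxia. It fell to 2.05 and 1.70 CPM with oxamate (-3.72 ± 0.12) and was at 9.76 and 11.04 with NALA added, between oxamate and normoxia. ZNF12, with 15 fingers, on chromosome 7 from 6688433 to 6706923 (minus strand), held 37.5 and 38.7 CPM under normoxia, 77.1 and 76.7 under hypoxia, 7.39 and 7.93 with oxamate and 68.6 and 66.7 with NALA added. Its oxamate libraries were the lowest by a wide margin, with a log2 fold change of -3.33 ± 0.065.

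ZNF700, with 18 fingers, fell from 17.1 and 17.5 to 1.70 and 1.74 CPM (-3.33 ± 0.13), and 14.8% of its words occur in other genes, mostly in AC008770.2. ZNF514 fell from 26.5 and 27.8 to 2.25 and 3.44 CPM (-3.26 ± 0.13), with MRPS5 overlapping on the same strand and 7.18% of words shared with it. ZNF440 fell from 16.5 and 15.1 to 2.13 and 1.17 CPM (-3.25 ± 0.17). In these 3 the oxamate libraries lay below those of every other group. Outside the KRAB genes, ZNF217, an oncogene of chromosome 20 whose protein works with the CoREST and LSD1 corepressors, fell from 56.5 and 56.7 to 8.79 and 8.17 CPM (-2.74 ± 0.069). ZNF395 (-2.06 ± 0.032), ZNF292 (-2.01 ± 0.055), ZNF318 (-1.82 ± 0.055), ZNF281 (-1.74 ± 0.15) and ZNF146 (-1.51 ± 0.048) fell as well.

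The largest increases with oxamate were in ZNF593, which held 55.4 and 54.9 CPM with oxamate and 54.04 and 59.2 with NALA added, and in ZNF598, which held 184 and 184 and 291 and 315. Their log2 fold changes against hypoxia were 3.41 ± 0.085 (adjusted p = 1.00e-19) and 2.26 ± 0.052. Both groups lay above normoxia as well as above hypoxia in both genes. The KRAB genes ZNF777 and ZNF746, which neighbour each other on chromosome 7 (149431363 to 149461123 and 149472696 to 149497817, both on the minus strand), rose together. ZNF777 held 22.95 and 22 CPM under normoxia, 9.37 and 9.89 under hypoxia, 46.1 and 42.7 with oxamate and 56.6 and 67.1 with NALA added, and ZNF746 rose to 27.3 and 25.97 and 32.5 and 35.9 CPM in the last groups. Their log2 fold changes with oxamate were 2.21 ± 0.087 and 2.19 ± 0.090.

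ZNF703 rose by 1.79 ± 0.11 and stayed below normoxia. ZNF410, an activator of the NuRD gene CHD4, held 64.2 and 61.96 CPM under normoxia, 37.97 and 36.96 under hypoxia, 123 and 124 with oxamate and 183 and 187 with NALA added. Its log2 fold change with oxamate was 1.72 ± 0.044, with the reservation that 34.5% of its words occur in other genes, mostly in AC005520.1, and that PTGR2 overlaps it on the same strand. ZNF207 held 277 and 271 CPM under normoxia, 132 and 132 under hypoxia, 361 and 357 with oxamate and 309.7 and 311 with NALA added, and it rose by 1.45 ± 0.032 with oxamate. Hypoxia was again its lowest group.

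When NALA was added to oxamate in hypoxia, 134 members rose and 24 fell. Of all tested genes 33.2% rose and 31.7% fell, and of the 9304 with a total of 2000 or more 42.3% rose and 42.0% fell, while the members' shares were 75.7% and 13.6%. Their median log2 fold change was 0.68, against -0.02 for all tested genes. At least 2-fold, 62 members rose (35.0%, against 14.7% of all tested genes and 15.1% of those with such totals) and 2 fell, ZNF629 and ZNF300 (1.13%, against 4.49% and 2.25%).

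ZNF627, a KRAB gene on chromosome 19 from 11559374 to 11619135 (plus strand), had the largest increase. It held 7.96 and 7.93 CPM under normoxia, 12.5 and 12.04 under hypoxia, 3.56 and 3.16 with oxamate and 34.4 and 34.9 with NALA added. The NALA libraries lay above every other library, at a log2 fold change of 3.36 ± 0.10 against oxamate (adjusted p = 9.84e-18). ZNF12 rose by 3.14 ± 0.067 and ZNF700 by 3.03 ± 0.14, to 13.3 and 14.9 CPM, a little below their levels in hypoxia. ZNF430, a KRAB gene of the cluster on chromosome 19 from 21020620 to 21196053, held 9.75 and 11.2 CPM under normoxia, 11.98 and 12.3 under hypoxia, 2.83 and 2.51 with oxamate and 18.4 and 17.6 with NALA added (2.75 ± 0.12). ZNF217 rose by 2.50 ± 0.072 to 48.1 and 47.7 CPM, below its hypoxia libraries. ZNF675, on chromosome 19 from 23525631 to 23687220 (minus strand), held 21.5 and 20.96 CPM under normoxia, 23.04 and 24.2 under hypoxia, 6.47 and 5.70 with oxamate and 34.7 and 33.8 with NALA added (2.49 ± 0.088).

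The 24 members that fell with NALA were led by ZNF629, which went from 12.9 and 14.3 to 4.17 and 3.71 CPM (-1.79 ± 0.12, adjusted p = 7.52e-12) and had its lowest libraries here. ZNF300, a KRAB gene, fell from 12.04 and 13.6 to 6.41 and 6.19 CPM (-1.03 ± 0.11). ZNF414 fell from 13.4 and 13.3 to 5.39 and 7.95 CPM (-0.98 ± 0.13). ZNF76, a close relative of the activator ZNF143, fell from 20.1 and 21.7 to 10.1 and 11.5 CPM (-0.95 ± 0.091), and ZNF143 fell too (-0.30 ± 0.074). ZNF346 fell from 20.7 and 19.5 to 9.86 and 11.7 CPM (-0.89 ± 0.092), and ZNF561, with its antisense gene ZNF561-AS1, from 30.9 and 30.9 to 18.1 and 15.6 (-0.88 ± 0.076). In each of these the libraries of the 2 groups did not overlap, as in every called member.

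**Figure D3:**
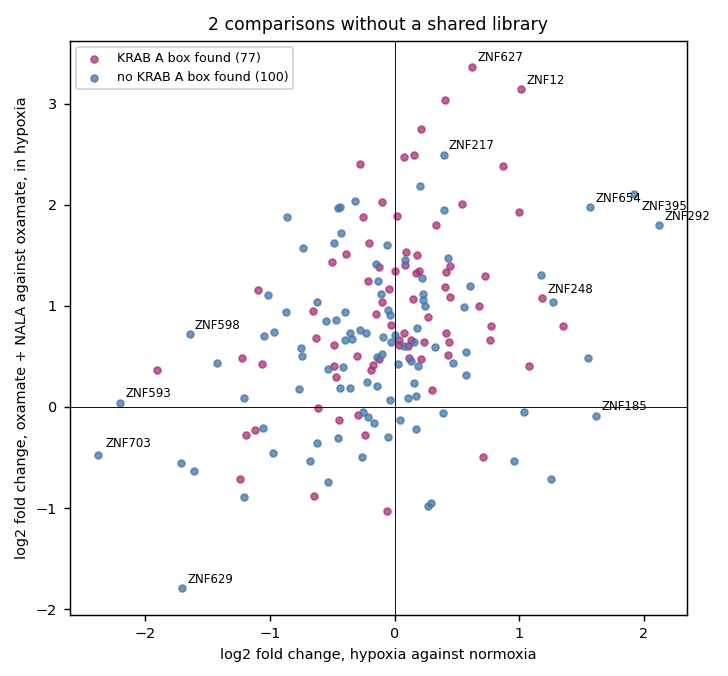
log2 fold change in hypoxia against normoxia (horizontal) and with NALA and oxamate against oxamate (vertical) of the 177 members, coloured by whether a KRAB A box was found. ZNF292, ZNF395 and ZNF654 lie at the upper right, ZNF627 and ZNF12 at the top, and ZNF629 at the lower left.

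These 2 comparisons share no library. Pearson's r between their log2 fold changes over the 177 members was 0.34 and Spearman's rho 0.31, against an r of 0.23 over all 15554 tested genes. Genes of one library share its depth and scaling and are not independent. Of the members called in both, 46 were higher in both, 15 lower in both, 46 lower in hypoxia and higher with NALA, and 6 higher in hypoxia and lower with NALA. These counts were not taken over all tested genes. Since 75.7% of all members rose with NALA, the counts alone cannot show a link between the 2 comparisons. Side by side, ZNF292 changed by 2.12 ± 0.054 and 1.80 ± 0.057, ZNF395 by 1.92 ± 0.032 and 2.10 ± 0.033, and ZNF654 by 1.57 ± 0.10 and 1.98 ± 0.11. ZNF185, which rose by 1.61 ± 0.058 in hypoxia, did not pass with NALA (-0.09 ± 0.059, adjusted p = 0.215), although it passed as lower without oxamate replicate 1 (-0.23) and with RLE (-0.14) or upper quartile scaling (-0.28).

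In NALA with oxamate against hypoxia alone, 95 members were higher and 62 lower. Of all tested genes 38.5% were higher and 40.2% lower, and of the 9304 with a total of 2000 or more 53.8% and 34.3%, so the members' share of 53.7% higher is close to that of genes with such totals. Their median was 0.29, against -0.05 and 0.23. At least 2-fold, 45 were higher (25.4%, against 14.7% of all tested genes and 17.5% of those with such totals) and 21 lower (11.9%, against 22.8% and 11.1%), so the share that was lower is also close to that of genes with such totals. ZNF593 (3.46 ± 0.085), ZNF598 (2.98 ± 0.051), ZNF777 (2.69 ± 0.085), ZNF746 (2.55 ± 0.089) and ZNF410 (2.30 ± 0.043) stood far above hypoxia. ZNF248 (-3.45 ± 0.14) and ZNF514 (-2.59 ± 0.12) stood far below it. ZNF395 (0.04 ± 0.029, adjusted p = 0.212) did not pass, although it passed as higher with RLE scaling (0.07) or without NALA replicate 1 (0.06) and as lower with upper quartile scaling (-0.22). ZNF654 (0.06 ± 0.090, adjusted p = 0.571) did not pass either, while ZNF292 (-0.21 ± 0.047) and ZNF12 (-0.18 ± 0.047) were lower by less than their other changes.

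Of 13 listed members that work outside DNA-binding repression, 8 fell and 4 rose in hypoxia, 7 fell and 6 rose with oxamate, 2 fell and 9 rose when NALA was added, and 4 were lower and 8 higher with NALA and oxamate than in hypoxia. With oxamate these are 53.8% and 46.2%, beside 41.3% and 49.0% of tested genes with a total of 2000 or more. In hypoxia they are 61.5% and 30.8%, beside 48.0% and 37.3%. When NALA was added they are 15.4% and 69.2%, beside 42.0% and 42.3%, and against hypoxia 30.8% and 61.5%, beside 34.3% and 53.8%. ZNF593, ZNF598 and ZNF622, which have roles at ribosomes, were set side by side after their values were seen. ZNF622, a maturation factor of the large ribosomal subunit, held 50 and 48.2 CPM under normoxia, 33.4 and 30.3 under hypoxia, 68.2 and 69.5 with oxamate and 146 and 137 with NALA added. Its log2 fold changes were -0.62 ± 0.056 in hypoxia, 1.11 ± 0.054 with oxamate and 1.04 ± 0.048 when NALA was added. In all 3 genes the hypoxia libraries were the lowest and the libraries of both drug groups were above normoxia. ZNF593 did not pass when NALA was added to oxamate (0.04 ± 0.061, adjusted p = 0.565), and with upper quartile scaling it passed as lower (-0.15, adjusted p = 0.0347).

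The listed RNA binding proteins differed among themselves. ZNF346 changed by -1.21 ± 0.082 in hypoxia and by 0.73 ± 0.086 with oxamate, so it fell and then rose. ZNF638, which also binds DNA, held 69.7 and 70.1 CPM under normoxia, 51.8 and 54.03 under hypoxia, 23.8 and 20.1 with oxamate and 37.3 and 32.8 with NALA added. ZNF326, which couples RNA polymerase II to splicing, held 60.4 and 56.04, 34.5 and 34.9, 19.2 and 17.9 and 28.01 and 24.8 CPM in the same order. ZNF638 and ZNF326 were highest in normoxia and lowest with oxamate, and no libraries of neighbouring groups overlapped. ZNF451, a SUMO ligase, held 36.6 and 33.3, 39.9 and 41.4, 26.8 and 24.4 and 63.4 and 60.9 CPM, and the nucleolar protein ZNF330 held 22.4 and 22.9, 30.5 and 30.6, 24.7 and 24.4 and 72.4 and 64.2. Their highest libraries were those with NALA, at log2 fold changes of 1.28 ± 0.063 and 1.47 ± 0.064 against oxamate.

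Of 24 listed regulators with described roles, 21 were members. Among these 13 fell and 4 rose in hypoxia, 11 fell and 7 rose with oxamate, 2 fell and 19 rose when NALA was added, and 3 were lower and 16 higher with NALA and oxamate than in hypoxia. Those that fell with oxamate were 52.4% and those that rose with NALA 90.5%, beside 59.3% and 75.7% of all 177 members. ZNF703 and ZNF143 were the regulators that fell with NALA. ZNF91 and ZNF93 did not pass the filter on low counts, and ZNF750 was tested but lay below the threshold of 2000.

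Oxamate was the lowest group for several of these regulators. ZNF644, which works with the H3K9 methyltransferases G9a and GLP, held 46.8 and 45.4 CPM under normoxia, 33.1 and 33.96 under hypoxia, 14.7 and 13.3 with oxamate and 57.4 and 52.4 with NALA added (1.97 ± 0.070 against oxamate). ZNF146 held 139 and 133, 100.4 and 101, 36.4 and 34.1 and 119 and 113 CPM (1.72 ± 0.049). ZNF24, a SCAN protein known to repress VEGFA, held 53.7 and 52.8, 48.01 and 48.99, 29.1 and 26.1 and 66.2 and 65.1 CPM. ZNF148 (ZBP-89), which binds GC-rich promoters, held 40.8 and 38.2, 40.2 and 43.7, 23.4 and 23.2 and 63.2 and 64.1. In each of these 4 the oxamate libraries were the lowest, and in ZNF644, ZNF24 and ZNF148 the NALA libraries were the highest.

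The listed partners of ZMYND8 did not move as one. ZNF592 held 44.7 and 43.4 CPM under normoxia, 33.3 and 33.3 under hypoxia, 57.9 and 59.3 with oxamate and 108 and 116 with NALA added, lowest in hypoxia. ZNF687, which PI4KB overlaps on the opposite strand, held 22.2 and 23.6, 29.3 and 28.2, 11.5 and 12.5 and 16.1 and 19.9 CPM, highest in hypoxia and lowest with oxamate. ZNF532 held 29.1 and 30, 24.7 and 25.6, 25.3 and 27.5 and 42.9 and 44.5 CPM, with overlapping hypoxia and oxamate libraries. ZNF274, which binds the ends of ZNF genes and recruits SETDB1, held 38.8 and 39.2, 35.8 and 34.4, 42.7 and 42.8 and 83.8 and 78.6 CPM. Its NALA libraries were the highest, at 0.92 ± 0.051 against oxamate.

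By domain, the 77 KRAB members summed to 1636 and 1616 CPM under normoxia, 1677 and 1692 under hypoxia, 1075 and 1081 under oxamate and 2146 and 2134 under oxamate and NALA. In the 100 others the pattern found no KRAB A box, and divergent boxes may be among them. They summed to 3617 and 3612, 3549 and 3563, 3313 and 3318, and 5104 and 5259 CPM. Both sums were lowest with oxamate and highest with NALA added. In hypoxia 23 KRAB members fell and 28 rose (29.9% and 36.4%, median log2 fold change 0.08). Of the 100 others 47 fell and 29 rose (-0.14). Of all tested genes 36.8% fell and 36.7% rose, and of those with a total of 2000 or more 48.0% and 37.3%. With oxamate 53 KRAB members fell and 19 rose (68.8% and 24.7%, -0.79), against 52 and 36 of the others (52.0% and 36.0%, -0.24). Of all tested genes 44.8% fell and 35.7% rose, and of those with such totals 41.3% and 49.0%. At least 2-fold, 35 KRAB members fell with oxamate (45.5%) and 2 rose (2.6%), ZNF777 and ZNF746. Of the 100 others 25 fell and 14 rose by that much. Of all tested genes 27.5% fell and 14.3% rose at least 2-fold, and of those with such totals 17.7% and 16.9%. When NALA was added, 66 KRAB members rose and 5 fell (85.7% and 6.49%, 0.89), against 68 and 19 of the 100 others (0.59). Of all tested genes 33.2% rose and 31.7% fell, and of those with such totals 42.3% and 42.0%. The difference between members with and without a KRAB match was not tested.

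**Figure D4:**
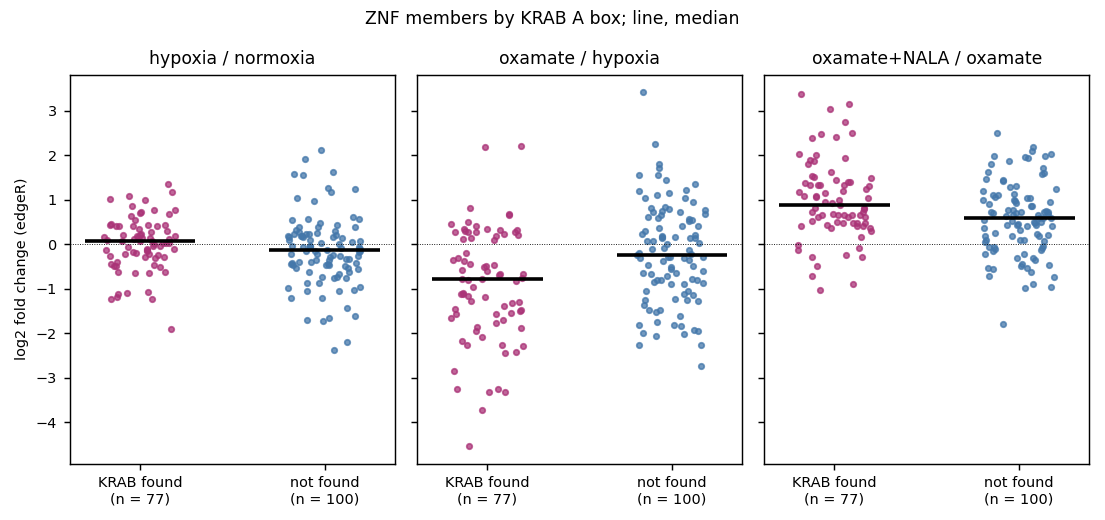
log2 fold change of each member (points) in 3 comparisons, split into the 77 with a KRAB A box and the 100 in which none was found, with a line for the median. With oxamate the medians are -0.79 and -0.24, and when NALA was added 0.89 and 0.59, with wide overlap of the points.

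Of the 12 SCAN members, 8 fell in hypoxia (66.7%, beside 39.5% of all members and 48.0% of tested genes with a total of 2000 or more) and 1 rose, ZNF496 (0.16 ± 0.047). With oxamate 4 fell and 6 rose. When NALA was added 9 rose (75%, close to the 75.7% of all members) and 1 fell, ZNF232 (-0.56 ± 0.11). ZNF263, with 9 fingers, held 36.5 and 39.5 CPM under normoxia, 26.7 and 27.6 under hypoxia, 22.4 and 22.2 with oxamate and 70 and 67.3 with NALA added. ZNF445, a regulator of imprinted loci that carries both domains, held 23.1 and 21.97, 24.9 and 23.7, 6.58 and 6.55 and 9.91 and 10.02 CPM in the same order, lowest with oxamate and still low with NALA. ZNF202, a repressor of lipid metabolism genes, held 25.6 and 29.4, 11.4 and 12.5, 26.5 and 26.8 and 27.4 and 29.3 CPM and was lowest in hypoxia. By number of fingers, with oxamate 22 members with 0 to 4 fell and 12 rose (61.1% and 33.3%, median -0.53). Among those with 5 to 9 fingers, 24 fell and 27 rose (42.1% and 47.4%, 0.14). For 10 to 14 fingers, 36 fell and 9 rose (70.6% and 17.6%, -0.68), and for 15 or more, 23 and 7 (69.7% and 21.2%, -0.67). Beside these stand 44.8% and 35.7% of all tested genes and 41.3% and 49.0% of those with a total of 2000 or more. The medians did not follow the number of fingers in order.

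On chromosome 19, 42 of 61 members fell and 16 rose with oxamate (68.9% and 26.2%, median -0.90). When NALA was added, 49 of them rose and 8 fell (80.3% and 13.1%, 0.73). On other chromosomes 63 of 116 fell and 39 rose with oxamate (54.3% and 33.6%, -0.31), and 85 rose and 16 fell with NALA (73.3% and 13.8%, 0.63). Of all tested genes 44.8% fell and 35.7% rose with oxamate, and 33.2% rose and 31.7% fell with NALA. KRAB members on chromosome 19 had medians of -1.16 and 0.95, and KRAB members elsewhere of -0.46 and 0.80. Of the 20 chromosome 19 members without a KRAB match, 10 fell and 8 rose with oxamate, and their medians were -0.16 and 0.56. Members elsewhere without a KRAB match had medians of -0.27 and 0.59. The difference between chromosomes was not tested. In the group of 5 members from 11483427 to 11950773 (ZNF653, ZNF627, ZNF823, ZNF440 and ZNF700), 4 fell and 1 rose with oxamate and all 5 rose with NALA, at medians of -1.86 and 2.03. The largest group, 16 members from 57191500 to 58418327, held 10 that fell and 5 that rose with oxamate, and 15 that rose and 1 that fell with NALA (medians -1.11 and 0.91).

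Within that group neighbours differed. ZNF772 held 20.3 and 19.98 CPM under normoxia, 19.9 and 19.2 under hypoxia, 2.94 and 2.43 with oxamate and 6.05 and 6.03 with NALA added, while ZNF550, further along, held 19.9 and 20.5, 20.7 and 21.9, 25.7 and 27.6 and 44.8 and 43.8 CPM. The first had its lowest libraries with oxamate, and the second had higher libraries with oxamate than in hypoxia. ZNF544 was the member of this group that fell with NALA (-0.28 ± 0.061), and it was highest in normoxia at 64.95 and 63.8 CPM. Shared words reach 15.5% in ZNF587 and 20.3% in ZNF8 here, so part of their counts may belong to neighbours.

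**Figure D5:**
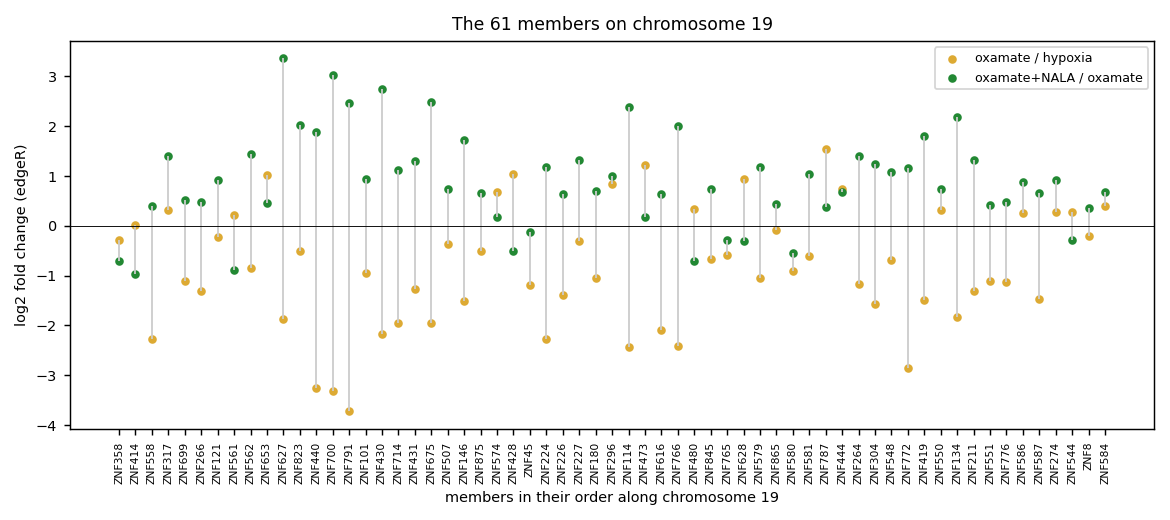
log2 fold changes of the 61 members on chromosome 19, in their order along the chromosome, for oxamate against hypoxia (yellow) and NALA with oxamate against oxamate (green), which share the oxamate libraries. The largest pairs of opposite changes are at ZNF700, ZNF791 and ZNF627, and members such as ZNF653, ZNF296 and ZNF787 lie above 0 in both.

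Counts were also taken without the members with at least 5% of shared words or an overlapping gene at 10% or more of their level. Of the 125 others, 56 fell and 35 rose in hypoxia (44.8% and 28.0%). With oxamate 74 fell and 38 rose (59.2% and 30.4%, median -0.46), and when NALA was added 14 fell and 95 rose (11.2% and 76.0%, 0.72). With NALA 41 were lower and 70 higher than in hypoxia (32.8% and 56.0%). Tested genes with a total of 2000 or more had 48.0% and 37.3%, 41.3% and 49.0%, 42.0% and 42.3%, and 34.3% and 53.8%. All tested genes had 36.8% and 36.7%, 44.8% and 35.7%, 31.7% and 33.2%, and 40.2% and 38.5%. Among 165 ZNF genes below the threshold that passed the filter, 118 fell and 19 rose with oxamate (71.5% and 11.5%, -1.06). With NALA 88 of them rose and 14 fell (53.3% and 8.48%, 0.68). Their summed CPM were 985 and 981 under normoxia, 791 and 795 under hypoxia, 398 and 403 under oxamate and 724 and 718 under oxamate and NALA, so that normoxia was highest there. Of 18 ZSCAN and ZKSCAN genes, 16 fell and 1 rose with oxamate and 15 rose and 1 fell with NALA. Of 33 ZBTB genes, 22 fell and 9 rose, then 21 rose and 5 fell, and of 10 ZFP genes, 7 fell and 2 rose, then 7 rose and 2 fell. The shares that fell with oxamate were 88.9% of ZSCAN and ZKSCAN, 66.7% of ZBTB and 70.0% of ZFP genes, beside 44.8% of all tested genes. Those that rose with NALA were 83.3%, 63.6% and 70.0%, beside 33.2%.

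The genes of the machinery that KRAB proteins recruit were split in direction. Of 20 listed corepressor and H3K9 methylation genes, 13 fell and 4 rose in hypoxia, 8 fell and 10 rose with oxamate, and 8 fell and 9 rose when NALA was added. With oxamate the shares of 40% and 50%, and with NALA those of 40% and 45%, are close to the shares of tested genes with a total of 2000 or more (41.3% and 49.0%, then 42.0% and 42.3%), while in hypoxia 65% fell, beside 48.0%. TRIM28 averaged 589 ± 1.66 CPM in normoxia, 328 ± 7.92 in hypoxia, 523 ± 1.79 with oxamate and 562 ± 43.0 with NALA added (SD, n = 2). Its log2 fold changes were -0.84 ± 0.040 in hypoxia and 0.67 ± 0.040 with oxamate. SETDB1 rose by 0.33 ± 0.053 in hypoxia and did not pass with oxamate (-0.10 ± 0.053, adjusted p = 0.102). MORC3, a SUMO-dependent repressor, changed by 1.66 ± 0.049, -1.98 ± 0.051 and 2.26 ± 0.051 in the first 3 comparisons, and UHRF1, a partner of DNMT1, by -1.79 ± 0.043, 1.17 ± 0.045 and -1.60 ± 0.048. Of 14 NuRD genes, 8 fell and 6 rose in hypoxia (57.1% and 42.9%), beside 48.0% and 37.3% of tested genes with such totals. With oxamate 3 fell and 8 rose (21.4% and 57.1%, beside 41.3% and 49.0%). With NALA 7 fell and 5 rose (50% and 35.7%, beside 42.0% and 42.3%). With so few genes these shares are coarse. MTA2 stood at -0.93 ± 0.039 and 1.13 ± 0.039 and CHD3 at 1.23 ± 0.035 and -0.95 ± 0.035 in the first 2 comparisons. Of 5 listed genes of the HUSH complex and its partners, 3 fell in hypoxia and 1 rose, SETDB1, which is also among the 20 above. With oxamate 1 fell and 2 rose, and with NALA 2 fell and 1 rose. These are too few to set beside such shares. TASOR was at -1.47 ± 0.057 with oxamate.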

How the data were processed

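The authors deposited raw counts for every gene in a single table of whole numbers, with Ensembl identifiers and symbols, and each column matched 1 of the 8 samples. The submitters' processing notes name the genome builds GRCh38 and hg38, RSEM 1.3.3, STAR 2.7.8a and FastQC 0.11.9, without a role. The values may be rounded RSEM estimates, and the sources used here give neither strand use nor annotation release.

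With edgeR 4.0.16 in R 4.3.3, genes kept by filterByExpr (minimum count 10) were scaled by TMM, and 1 robust quasi-likelihood model with a mean for each of the 4 groups was fitted to the 8 libraries, which leaves 4 residual degrees of freedom. Benjamini-Hochberg adjustment ran over 15554 genes, with a threshold of 0.05. Standard errors were taken from the log2 fold change and its F statistic. Simulated data with known changes were used to test the scripts.

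Members and lists were chosen with earlier results of these data known, so no set test was made. Named members are the 6 largest increases and decreases in each of the first 3 comparisons, among called members whose libraries did not overlap. Also named are up to 12 members of the lists by role in a comparison, and those with the highest and lowest totals or nearest the threshold. Members named under SCAN, ZMYND8 partners, chromosome 19 and the ribosome genes as a set were chosen after their values were seen. Positions, exons and coding sequences come from GENCODE release 29 (GRCh38). KRAB, SCAN and C2H2 matches are sequence patterns, and divergent boxes may be missed. Chromosome 19 groups were cut at gaps over 500 kb.

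Alternatives were RLE and upper quartile scaling, DESeq2 1.42.0, no count filter, at least 50 counts in 2 libraries, glmTreat at 1.5-fold, a block for the replicate number, fits of only the groups compared, other totals for membership and leaving out each library in turn.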

Additional observations from a re-analysis of the deposited data

How the results depend on the processing

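Testing against a fold change of 1.5 left 27 members lower and 19 higher in hypoxia, 24 higher with oxamate, 6 lower and 81 higher when NALA was added, and 34 lower and 59 higher for NALA with oxamate against hypoxia. The number lower with oxamate stayed within 1.5 times the reported count. Of all 15554 tested genes, this test left 2841 lower and 2885 higher in hypoxia and 4917 and 3291 with oxamate. When NALA was added these were 1108 and 2710, and against hypoxia 4024 and 3374. Of 64 counts of members under settings other than leaving out a library, 57 stayed within 1.5 times the reported count. The median log2 fold change of the members in hypoxia was 0.0544 with upper quartile scaling, the reverse of the reported sign, -0.00618 with the stricter filter and -0.11 with a membership total of 1000. With oxamate it was -0.40 with RLE scaling, -0.55 with upper quartile scaling, -0.38 in the fit of 2 groups, -0.40 with DESeq2, -0.54 at a total of 1000 and -0.29 at 4000. When NALA was added it was 0.63 with RLE scaling, 0.49 with upper quartile scaling, 0.57 with the stricter filter and 0.63 with DESeq2. For NALA with oxamate against hypoxia it was 0.0283 with upper quartile scaling, 0.20 with the stricter filter, 0.20 at a total of 1000 and 0.54 at 4000. Upper quartile scaling moved the median of all tested genes from 0.02 to 0.12 in hypoxia, from -0.02 to -0.21 when NALA was added and from -0.05 to -0.31 against hypoxia. It called 6340 genes lower and 4150 higher when NALA was added (4927 and 5160 with TMM), among them 35 members lower and 122 higher, and 7693 lower and 4683 higher against hypoxia (6246 and 5981 with TMM).

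Leaving out each library in turn gave 61 to 75 members lower and 49 to 61 higher in hypoxia (median -0.0616 to -0.0375), 96 to 105 and 51 to 62 with oxamate (-0.49 to -0.37), 23 to 28 and 122 to 134 when NALA was added (0.56 to 0.70), and 58 to 62 and 88 to 99 against hypoxia (0.26 to 0.33). Over 159 pairs of a named member and a comparison, 1245 of the values without 1 library stayed on their side of the threshold, 14 were lost, 4 gained and 9 turned sign, and under other settings these were 1174, 70, 12 and 16. In hypoxia the sign turned for ZNF106 (0.0728 with upper quartile scaling, 0.0122 with the stricter filter), ZNF143 (0.0544 with upper quartile scaling, -0.13 to 0.0186 without 1 library) and ZNF384 (0.0534 with upper quartile scaling). With oxamate it turned for ZNF131 (0.0801 with RLE scaling, 0.0325 with the stricter filter, 0.10 in the fit of 2 groups, 0.0771 with DESeq2, -0.0365 to 0.11 without 1 library) and ZNF367 (-0.18 to 0.0761 without 1 library). When NALA was added it turned for ZNF593 (-0.0136 with RLE scaling, -0.15 with upper quartile scaling, -0.0748 with the stricter filter, -0.0125 with DESeq2, -0.0615 to 0.10 without 1 library). Against hypoxia it turned with upper quartile scaling for ZNF146 (-0.0567), ZNF281 (-0.12) and ZNF395 (-0.22), and for ZNF395 with the stricter filter (-0.0417). Among these pairs ZNF146 was the one that had passed, and the cause was not tested.

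Same-numbered libraries did not deviate together from their group means, with correlations of -0.05 to 0.01. Whether they were handled together is not in the labels, and these correlations cannot decide it. With the replicate block 71 members were lower and 56 higher in hypoxia, 105 and 55 with oxamate, 24 and 135 when NALA was added, and 62 and 95 against hypoxia. With 2 libraries a group and a spread of 3.06%, small changes pass, and members with few counts in a group, down to 53, carry wider errors.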
